A study of Mus musculus with 10 samples.

Results

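H3K27me3 regions that lie more than 100 kb from the body of every protein-coding gene were taken from 10 region lists of mouse macrophages, each list called by the authors in 1 library. A region was kept when it lay on chromosomes 1 to 19 and its whole span was over 100 kb from the nearest coding gene of the mm10 assembly. The rule kept 27217 of 328681 autosomal regions, or 6.05% to 9.61% of those of a library, and such regions are called far regions here. They were set against the other 301464 autosomal regions, which are within 100 kb of a coding gene or inside one. The rule uses position alone, so the number, size and tag count of the far regions were not used to choose them.

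Bone marrow-derived macrophages of C57BL/6 mice were the cells studied; they form when marrow cells are kept in M-CSF, here at 20 ng/ml over 7 days. M2 cells then had 24 h of IL-4 at 20 ng/ml, M1 cells had 24 h of LPS at 20 ng/ml with interferon-gamma at 50 ng/ml, and M0 cells had no stimulus. KO cells were Eif2ak3 fl/fl x LysMcre, in which the lysozyme M gene drives Cre in myeloid cells, and WT cells were Eif2ak3 fl/fl without Cre. Both genotypes thus carried the floxed gene, which encodes the stress kinase PERK. There were 2 KO and 2 WT libraries in M2, 2 KO and 2 WT in M1, and 1 KO and 1 WT in M0. The design text calls the M2 and M1 replicates biological and does not number the animals, and the labels state neither age nor sex.

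H3K27me3 is written by the EZH2 methyltransferase of Polycomb repressive complex 2 and marks silenced chromatin, often as broad domains over developmental genes. CpG-rich DNA is the usual recruitment platform of the complex in mammals. Stretches with no coding gene can hold distal enhancers, long noncoding RNA (lncRNA) genes and microRNA genes, so H3K27me3 there can lie over elements that act on genes far away.

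The libraries had 12.6 to 20.9 megatags, of which 41.3% to 64.1% lay in called regions. Estimated fragments were longer in M0, at 372 bp in KO and 352 bp in WT, while M2 and M1 libraries had 178 to 190 bp. M0 is therefore set beside M2 and M1 without a test of the states. The Eif2ak3 body was under no called region in any library, which says nothing about the deletion. Of 12 macrophage marker genes, 0 to 2 had at least 50% of the body under regions in a library, and of 12 lymphoid marker genes 4 to 7 had. The count of 2 macrophage genes was that of both M0 libraries. The same share over all coding genes was not taken, so these counts have no background. WT M2 replicate 1 had 7743 regions on the X chromosome and WT M1 replicate 1 had 7510, against 237 to 318 in the other 8 libraries. These 2 WT libraries stand apart, and the rule leaves the X chromosome out; tests of groups were repeated without each library.

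Far regions can only lie over noncoding genes, so the sequences of microRNAs and lncRNA promoters under them are shown, as RefSeq gives them on GRCm38.p6, the build of mm10. In the mature microRNAs the capitals mark the seed, bases 2 to 8, which pairs with target messenger RNAs. Mir100, Mirlet7a-2 and Mir125b-1 lie within the lncRNA gene Mir100hg on chromosome 9, and Mir802 lies on chromosome 16 between Runx1 and Setd4. The mature sequences lie on the plus strand, miR-100-5p at chr9:41531437-41531458, let-7a-2-3p at chr9:41536777-41536797, miR-125b-5p at chr9:41581940-41581961 and miR-802-5p at chr16:93369737-93369758. For Mirlet7a-2 only the 3p arm is shown, while the others are 5p arms. No pair of the 4 sequences shown shares a seed. Regions lay over Mir100 and Mir125b-1 in all 10 libraries, over Mir802 in 8 and over Mirlet7a-2 in 6.
mmu-miR-100-5p: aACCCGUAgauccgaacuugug
mmu-let-7a-2-3p: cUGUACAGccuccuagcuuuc
mmu-miR-125b-5p: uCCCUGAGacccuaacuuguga
mmu-miR-802-5p: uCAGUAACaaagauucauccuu

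Promoters are shown from 250 bases before to 50 bases after the annotated start, on the gene's strand, with each CG dinucleotide in capitals. All 3 were under called regions in all 10 libraries. The Mir100hg promoter (chr9:41376276-41376575, plus strand) holds 15 CG, that of the lncRNA 9530059O14Rik (chr9:122572251-122572550, plus strand) holds 38, and that of the lncRNA 4933427D06Rik (chr6:89095860-89096159, plus strand) holds 12.
Mir100hg: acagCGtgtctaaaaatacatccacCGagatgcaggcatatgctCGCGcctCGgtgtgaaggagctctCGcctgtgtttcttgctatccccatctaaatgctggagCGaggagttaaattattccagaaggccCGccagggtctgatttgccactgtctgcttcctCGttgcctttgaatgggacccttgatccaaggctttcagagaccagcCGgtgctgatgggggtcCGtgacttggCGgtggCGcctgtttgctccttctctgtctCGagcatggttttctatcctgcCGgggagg
9530059O14Rik: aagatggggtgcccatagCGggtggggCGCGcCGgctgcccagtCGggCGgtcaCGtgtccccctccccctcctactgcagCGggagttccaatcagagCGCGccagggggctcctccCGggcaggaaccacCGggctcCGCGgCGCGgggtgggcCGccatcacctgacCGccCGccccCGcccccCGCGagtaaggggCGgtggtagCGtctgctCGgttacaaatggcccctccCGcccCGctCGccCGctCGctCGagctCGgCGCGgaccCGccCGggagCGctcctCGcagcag
4933427D06Rik: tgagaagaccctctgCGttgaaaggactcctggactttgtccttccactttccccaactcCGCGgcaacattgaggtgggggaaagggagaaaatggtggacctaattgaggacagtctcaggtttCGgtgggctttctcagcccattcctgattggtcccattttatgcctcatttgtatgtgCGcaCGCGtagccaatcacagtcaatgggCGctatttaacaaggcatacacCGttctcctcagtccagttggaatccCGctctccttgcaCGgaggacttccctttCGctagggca

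The number of far regions did not separate the genotypes. There were 2922 and 2487 in KO M2 and 2527 and 2957 in WT M2. In M1 there were 2981 and 2908 in KO against 2884 and 3220 in WT, and in M0 there were 2383 in KO and 1948 in WT. The genotypes overlapped in M2 and in M1, and both M0 libraries were below every stimulated one. KO libraries averaged 2736 ± 279 far regions and WT libraries 2707 ± 491 (SD, n = 5 each), a difference of 29.0 regions (exact permutation within states, two-sided, p = 0.833, adjusted p = 0.833). That test has 72 arrangements and cannot give a p under 0.0278.

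The genotypes also overlapped in the length under far regions. It was 11.8 and 9.14 Mb in KO M2 against 10.1 and 13.1 Mb in WT M2, and 12.7 and 12.02 Mb in KO M1 against 11.51 and 13.3 Mb in WT M1. The M0 libraries had 6.67 Mb in KO and 5.51 Mb in WT, the 2 lowest of all 10. Median sizes were 1.61 and 1.51 kb in KO M2 against 1.67 and 1.78 kb in WT M2, groups that did not overlap. In M1 they were 1.81 and 1.61 kb in KO against 1.57 and 1.66 kb in WT, which overlapped, and in M0 they were 1.28 kb in KO and 1.35 kb in WT. Within M2 alone, 2 libraries against 2 cannot give an exact permutation p under 0.333. Over all states, KO minus WT was -0.24 Mb for the covered length (adjusted p = 0.833, exact permutation) and -0.0417 kb for the median size (adjusted p = 0.833, exact permutation).

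**Figure D1:**
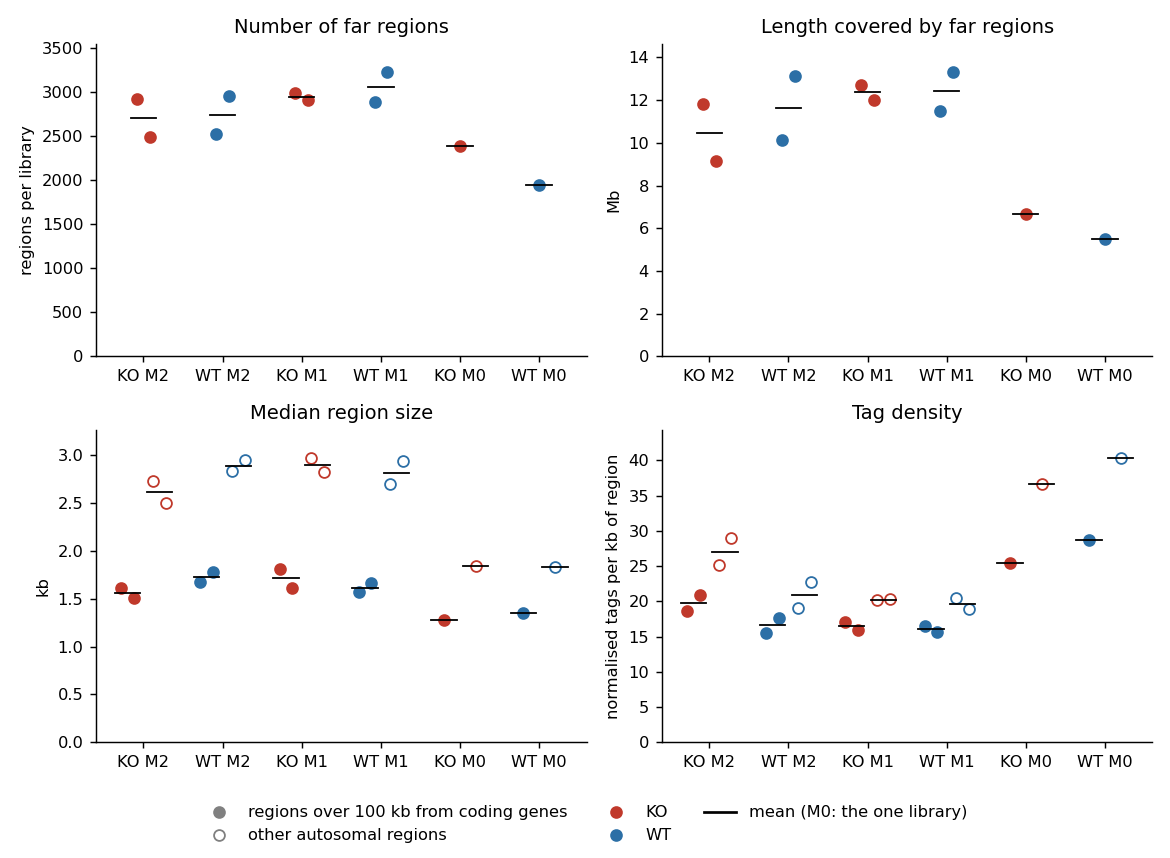
Number and covered length of far regions (upper panels) and median region size and tag density of far and other autosomal regions (lower panels), by group; each dot is a library and each line the mean of a group, with KO left of WT. The filled dots (far) lie below the open dots (other regions) in all 10 libraries for size and for density, and the M0 libraries have the shortest far cover, 6.67 Mb in KO and 5.51 Mb in WT.

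Normalized Tag Count, the authors' tag number per region scaled to 10 megatags, had medians of 25.5 and 25 in KO M2 against 22.7 and 26.2 in WT M2. The medians were 27 and 23.1 in KO M1 against 22.4 and 23.1 in WT M1, and 24.8 in KO M0 against 28.1 in WT M0. Tags per kb of far region were 18.7 and 21.0 in KO M2 against 15.5 and 17.7 in WT M2, so that both KO M2 libraries lay above both WT M2 libraries. In M1 the densities were 17.1 and 15.98 tags per kb in KO against 16.5 and 15.6 in WT, and in M0 they were 25.4 in KO and 28.7 in WT. KO minus WT was 0.58 tags for the median count (adjusted p = 0.833, exact permutation) and 0.81 tags per kb for the density (adjusted p = 0.833, exact permutation). The M0 libraries had the highest share of a library's tags inside regions and the highest densities, and WT M2 replicate 1 had the lowest of both. Within M0 the order was reversed, with the higher share in KO and the higher density in WT. The share was 61.0% and 61.3% in KO M2 and 41.3% and 56.5% in WT M2. It was 45.0% to 48.5% in M1, and 64.1% in KO M0 against 62.6% in WT M0. Its part in the densities was not tested, and in bulk cells fewer marked cells and less mark per cell cannot be told apart.

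Of all tags in autosomal regions, far regions held 3.64% and 3.14% in KO M2 against 4.65% and 4.13% in WT M2. The KO M2 values were the 2 lowest of the stimulated libraries. In M1 the shares were 4.8% and 3.97% in KO against 4.35% and 4.64% in WT, and in M0 they were 2.66% in KO and 2.54% in WT. Over the states the KO mean was 3.64% ± 0.82 and the WT mean 4.06% ± 0.88 (SD, n = 5 each; exact permutation p = 0.194, adjusted p = 0.617).

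No difference between M2 and M1 cells passed the test in any of the 6 measures. M2 averaged 2723 ± 251 far regions and M1 averaged 2998 ± 153 far regions (n = 4 each, SD; exact permutation p = 0.200, adjusted p = 0.617). The covered length was 11.1 ± 1.77 Mb in M2, against 12.4 ± 0.786 Mb in M1 (n = 4 each, SD; p = 0.257 by the same permutation, adjusted p = 0.617). The median size was 1.64 ± 0.113 kb in M2, against 1.66 ± 0.107 kb in M1 (n = 4 each, SD; exact permutation, adjusted p = 0.833). Tag density was 18.2 ± 2.26 tags per kb in M2, against 16.3 ± 0.627 in M1 (n = 4 each, SD; exact permutation p = 0.171, 0.617 when adjusted). With WT M2 replicate 1 left out, the density difference was 2.82 tags per kb, with an exact permutation p of 0.0286, unadjusted and the smallest that comparison can give. The 12 tests of KO against WT and of M2 against M1 gave adjusted p-values from 0.617 to 0.833, and with these sample sizes a missed threshold does not show that the groups are alike.

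Far regions were smaller and had fewer tags than the other autosomal regions of the same library, in all 10 libraries. Their median size averaged 1.58 ± 0.171 kb, against 2.61 ± 0.432 kb for the others (SD, n = 10; exact sign-flip permutation over libraries, p = 0.00195, the smallest 10 libraries allow). All libraries share the same genome, so their positions are not independent, and this test does not measure the spread between positions. Median Normalized Tag Count averaged 24.8 ± 1.95 for far and 40.04 ± 1.86 for other regions (SD, n = 10; exact sign-flip permutation, p = 0.00195). Tag density averaged 19.2 ± 4.51 tags per kb for far and 25.3 ± 7.67 for other regions (SD, n = 10; exact sign-flip permutation, p = 0.00195). Regions in gene bodies had 20.4 to 32.7 tags per kb in the stimulated libraries. The ranges there were 15.3 to 21.0 tags per kb at 100 to 200 kb from a gene, 15.1 to 19.6 at 50 to 100 kb and 15.5 to 19.6 at 10 to 50 kb. With gene-body regions left out, an alternative added after the data were seen, the density difference turned to 0.77 tags per kb, far minus other, and no longer passed the test (exact sign-flip permutation, p = 0.0723). The size difference was then -0.41 kb and the tag count difference -5.91 tags, both with an exact sign-flip permutation p of 0.00195. That alternative kept the 2 most densely tagged positions, described below, which held 2.08% to 20.9% of the far tags of a library. Without these positions the far density was 14.9 to 19.4 tags per kb in the stimulated libraries. Leaving out both the gene-body regions and these positions was not tested. A wide region is less likely to lie wholly beyond 100 kb, so the rule itself favours small ones. When each region was placed by its midpoint, an alternative added after the data were seen, the size difference was -0.98 kb and the density difference -5.05 tags per kb, both with an exact sign-flip permutation p of 0.00195. Regions of 1 kb, the smallest size the caller reports, made up 29.7% to 40.8% of far regions and 21.3% to 28.7% of the others.

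Far territory, the 656 Mb of autosome beyond 100 kb, is 27.3% of the autosomal length examined. In the 8 stimulated libraries the share of 1 kb bins under regions was 15.5% to 20.7% within 10 kb of a coding gene. The share was 3.61% to 5.19% at 100 to 200 kb, 1.26% to 1.93% at 200 to 500 kb and 0.0984% to 0.208% beyond 500 kb. Each step outward from the 0 to 10 kb class thus had a smaller share of bins under called regions. M0 cover was 2.65% in KO and 2.16% in WT at 100 to 200 kb. Taking all 10 libraries together, 4.35% of far bins were called at least once, against 19.7% of the other autosomal bins. Near the boundary, the regions at 100 to 110 kb numbered 241 to 354 per library and those at 90 to 100 kb numbered 284 to 416, with median sizes of 1.26 to 1.88 kb and 1.28 to 2.08 kb.

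**Figure D2:**
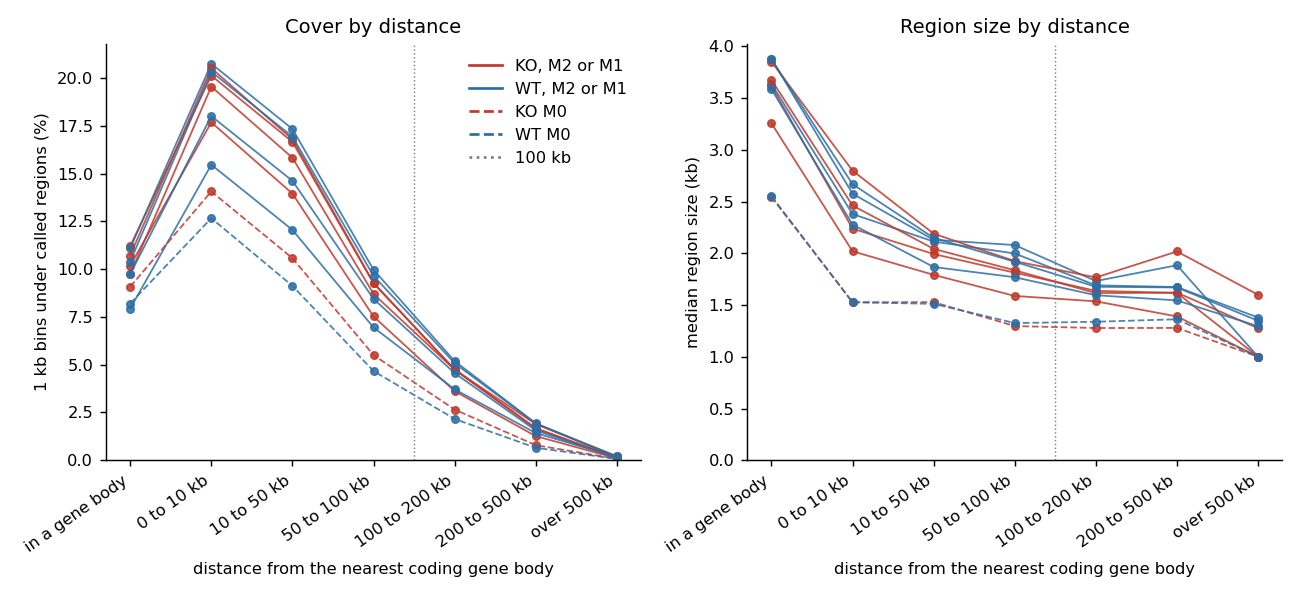
Share of 1 kb bins under called regions (left) and median region size in kb (right) by distance from the nearest coding gene body; each line is a library, dashed for M0, and the dotted line marks 100 kb. Cover peaks at 0 to 10 kb, between 12.7% and 20.7%, and is at most 5.19% beyond 100 kb.

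Chromosomes differed in how much of their far territory was called. The median over libraries was highest on chromosome 9 at 4.78%, chromosome 6 at 4.33% and chromosome 13 at 4.21%, and lowest on chromosome 15 at 0.569%. Chromosome 13 alone held 3286 of the 27217 far regions.

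Far cover was shared less between libraries than cover elsewhere. Among far bins called in any library, 9.81% were called in all 10 and 27.5% in only 1; elsewhere on the autosomes these shares were 25.1% and 15.98%. The Jaccard index, shared length over joint length, was lower for far than for other bins in 45 of 45 pairs of libraries, with medians of 0.468 and 0.634. For the 8 stimulated libraries, pairs of the same state had a mean far Jaccard index of 0.518 and pairs of different states 0.488, a difference of 0.0305 (exact permutation of the states, p = 0.0857). Within a state, pairs of the same genotype exceeded pairs of different genotype by 0.0203 (exact permutation, p = 0.444). Pairs of a stimulated library with an M0 library had a median of 0.316, against 0.589 for the 2 M0 libraries.

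**Figure D3:**
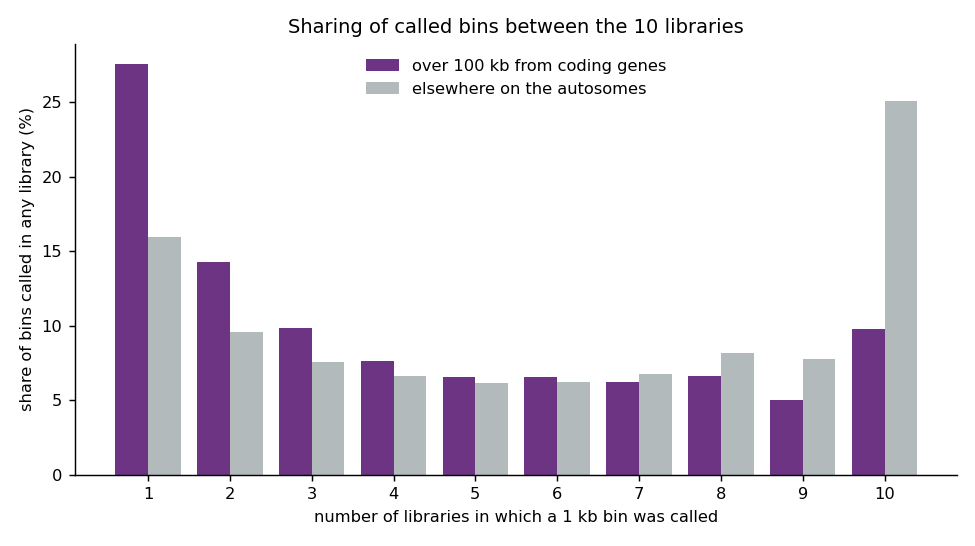
Share of 1 kb bins called in any library, by the number of libraries that called them, for bins over 100 kb from coding genes (purple, left bar) and elsewhere on the autosomes (grey, right bar). Far bins were called in 1 library in 27.5% of cases and in all 10 in 9.81%, against 15.98% and 25.1% elsewhere.

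Wide far regions recurred most. Of far regions of 20 kb or more, a median of 44.5% were at least 50% covered in all 9 other libraries, against 1.20% of those of 1 kb. Other autosomal regions had medians of 71.2% at 20 kb or more and 1.18% at 1 kb. At 20 kb or more the share ran from 29.2% to 100% for far and from 63.4% to 89.7% for other regions, and it was lower for far regions in every library but WT M0, where all 13 far regions of that size were shared. At 5 to 20 kb the ranges were 7.86% to 70.7% for far and 23.9% to 66.7% for other regions. These shares were not tested. There were 64 to 96 such wide far regions in each stimulated library, holding 21.9% to 27.9% of the far length, and 23 in KO M0 and 13 in WT M0.

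Merging the far regions of all libraries gave 6240 domains with a total length of 27.6 Mb and a median width of 1.54 kb. Only 88 domains, 1.41% by number and 8.78% by length, were at least 50% covered in all 10 libraries, and 3440 were so covered in 1 library only. The 6 widest of the 88 lay in 5 gaps between coding genes. The widest, 160 kb at chr18:81504599-81664101, lies between Sall3, a developmental zinc-finger gene, and Galr1, a galanin receptor gene. Its cover was 92.6% and 88.3% in KO M2 against 88.7% and 99.7% in WT M2, 89.4% and 87.9% in KO M1 against 85.2% and 95.5% in WT M1, and 62.7% in KO M0 against 68.7% in WT M0. The next, 155 kb at chr6:99945745-100100782, lies between Prok2, which encodes a chemokine-like ligand, and Rybp, itself a gene of a Polycomb repressive complex 1 subunit. It was covered by 79.9% to 99.6% in M2, 92.9% to 96.2% in M1, and 73.3% in KO M0 against 61.6% in WT M0.

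The domain of 149 kb at chr9:61518527-61667562 lies between Rplp1 and Tle3, a gene of a Groucho-family corepressor. It had the fullest M0 cover of the 6, 93.4% in KO M0 and 89.5% in WT M0, with 100.0% and 100.0% in KO M2 against 78.1% and 100.0% in WT M2. Its summed tags were 4115 and 3854 in KO M2 against 1762 and 3458 in WT M2, 3347 and 2904 in KO M1 against 2754 and 2583 in WT M1, and 3454 in KO M0 against 3116 in WT M0. WT M2 replicate 1 had the fewest tags there of all 10 libraries. A pair of domains of 144 kb and 132 kb, chr14:25118872-25263087 and chr14:24978572-25110890, shares the gap between Rps24, a ribosomal protein gene, and Zmiz1, a transcriptional coregulator gene. In the 132 kb domain the 4 M2 libraries had 85.6% to 99.5% cover and the 4 M1 libraries 67.2% to 82.5%, with no overlap, and M0 had 63.3% in KO and 52.3% in WT. The domain of 112 kb at chr16:93295767-93408097 lies between Runx1, a master regulator of blood formation, and Setd4, and holds Mir802. WT M2 replicate 1 had less cover than both KO M2 libraries in 5 of the 6 domains, and in the Sall3 domain it lay between them. The widest far domain of all, 170 kb at chr12:16040458-16210648 between Trib2 and Lpin1, was not among the 88. It was 93.6% and 82.7% covered in KO M2 against 99.8% and 99.0% in WT M2, 98.7% and 88.7% in KO M1 against 88.8% and 92.4% in WT M1, and 38.6% in KO M0 against 49.3% in WT M0.

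Cover in all 10 libraries was concentrated in few places. Of 1376 gaps wider than 200 kb between neighbouring coding genes, 652 had any called far bin, 190 had a far bin called in all 10 libraries, and 724 had none called. The 10 richest gaps held 35.5% of the 2785 kb that such gaps had under regions in all libraries. They were led by Rps24 to Zmiz1 with 145 kb and Tpra1 to Plxna1 with 141 kb of its 203 kb of far territory. The gap between Irf8, a transcription factor gene required for macrophage development, and Foxf1, a mesenchymal forkhead gene, had 71 kb called in all 10. Its 127 kb of far territory was called over 127 and 125 kb in KO M2 against 93 and 122 kb in WT M2, 86 and 107 kb in KO M1 against 123 and 108 kb in WT M1, and 117 kb in KO M0 against 108 kb in WT M0. Between Lhx1, a LIM-homeobox gene, and Mrm1 the 87 kb of far territory was called over 84 to 87 kb in every library, and near Vegfa, the gene of vascular endothelial growth factor A, 79 to 81 kb of 81 kb was. The Rps24 gap, by contrast, ranged from 288 kb in WT M0 to 610 kb in WT M2 replicate 2.

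The 138 kb domain at the microRNA cluster of Mir100hg (chr9:41501476-41639470, between Ubash3b and Gm40514) varied far more. It was 57.3% and 25.2% covered in KO M2 against 89.5% and 78.5% in WT M2, and 77.4% and 68.8% in KO M1 against 92.4% and 83.4% in WT M1. In M0 it was 9.64% covered in KO and 7.59% in WT. Both KO libraries thus lay below both WT libraries in M2 and in M1, and the order was the other way round in M0. The domain was singled out after its values were seen, so these are given without a test. Over the whole 239 kb of Mir100hg the cover was 42.6% and 20.4% in KO M2 against 76.0% and 68.7% in WT M2, 60.9% and 58.6% in KO M1 against 78.8% and 73.3% in WT M1, and 8.50% in KO M0 against 7.29% in WT M0.

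At this locus, 4 stretches of the gene were under a called region in every library. They lay at the upstream end, around Mir100, around Mir125b-1 (sequences above), and 70.5 to 71.7 kb into the gene, where none of the 3 microRNAs lies. The region at this last stretch spanned 3.77 and 2.07 kb in KO M2 against 13.5 and 17.3 kb in WT M2, 11.39 and 15.998 kb in KO M1 against 10.8 and 20.6 kb in WT M1, and 1.58 kb in KO M0 against 2.02 kb in WT M0. MicroRNAs of the miR-100 and miR-125 families are known as regulators of blood cell growth and differentiation. The region at Mir125b-1 spanned 11.52 and 10.9 kb in KO M2 against 63.0 and 43.7 kb in WT M2, 20.2 and 36.5 kb in KO M1 against 28.1 and 22.1 kb in WT M1, and 6.39 kb in KO M0 against 3.85 kb in WT M0. At Mir100 it spanned 9.44 and 8.16 kb in KO M2 against 63.0 and 10.1 kb in WT M2 (in replicate 1 the same region as at Mir125b-1), 38.7 and 19.8 kb in KO M1 against 28.9 and 19.0 kb in WT M1, and 3.91 kb in KO M0 against 2.25 kb in WT M0. Mirlet7a-2, a let-7 gene between them, was under no region in either KO M2 library or either M0 library. It was 100% and 61.5% covered in WT M2, and 100% in all 4 M1 libraries. The share of tags in regions was 61.0% and 61.3% in the KO M2 libraries and 64.1% and 62.6% in the M0 libraries, the 4 highest values of the series, and its part in these differences was not tested.

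**Figure D4:**
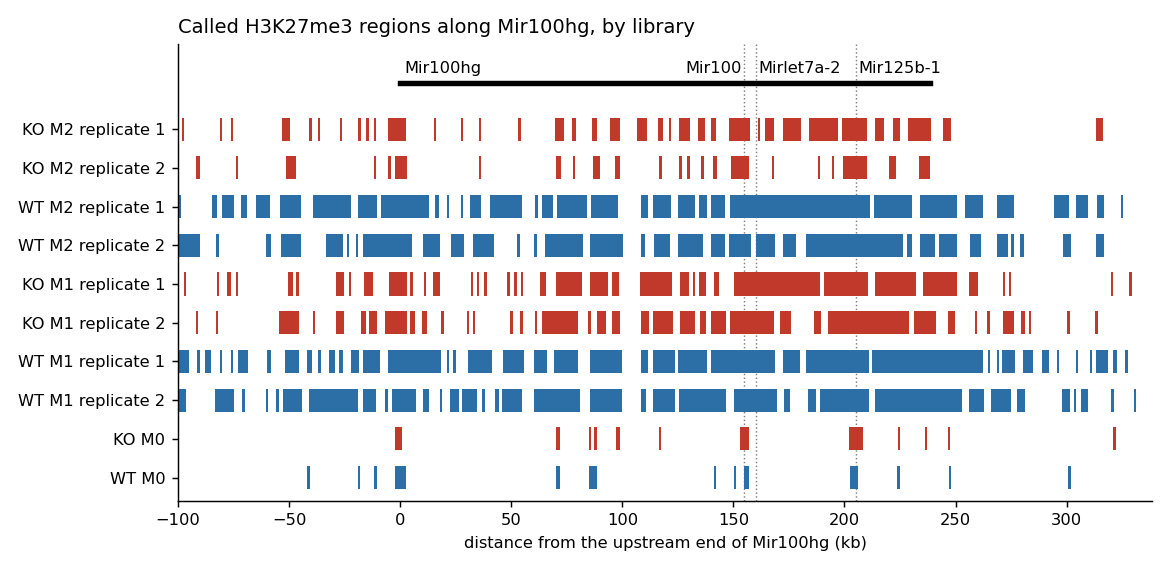
Called regions along Mir100hg in each library (red KO, blue WT), by distance in kb from the upstream end of the gene, with the 3 microRNA genes as dotted lines. Regions cover 58.6% to 78.8% of the gene in WT M2, WT M1 and KO M1. They are sparser in KO M2, and in M0 cover 8.50% of the gene in KO and 7.29% in WT.

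In M2, 755 far bins were called in both KO libraries and neither WT library, and 1339 in both WT libraries and neither KO library. These are 3.56% and 6.31% of the 21221 far bins called in any M2 library; over all autosomal bins the shares were 4.18% and 3.58%. The KO-only share was near its background, and the WT-only share was above it, with no test of that excess. Leaving out 1 of the 4 libraries, which loosens the criterion by construction, gave 921 to 3041 KO-only and 1569 to 3935 WT-only bins. Without WT M2 replicate 1, which stands apart on the X chromosome, the counts were 921 and 3935. The longest WT-only runs lay between Edn1, the gene of endothelin 1, and Phactr1, a gene of an actin and phosphatase regulator. They spanned 9 kb in a domain of 42.2 kb (chr13:42428714-42470955) and 8 kb in one of 81.6 kb (chr13:42473537-42555112). The 42.2 kb domain was 36.9% and 18.9% covered in KO M2 against 98.7% and 92.6% in WT M2. It was 93.3% and 98.8% covered in KO M1 against 95.1% and 99.4% in WT M1, and 0% in both M0 libraries. Its level in KO M2 thus lay between that of M0 and that of the 6 other libraries. The next WT-only run, of 7 kb (chr12:15677001-15684000), lies between Lratd1 and Trib2, in the lncRNA gene Gm40287, and was 100% covered in both WT M2 libraries, 0% and 1.1% in KO M2, and 0% in all M1 and M0 libraries.

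The longest KO-only runs in M2 were of 4 kb. These runs lay beside Bcl2l11, a pro-apoptotic gene (chr2:128277001-128281000), beside Foxl1, a forkhead gene (chr8:121375001-121379000), and beside Cadm1, an adhesion molecule gene (chr9:47388001-47392000). At the Bcl2l11 run the cover was 88.6% and 99.7% in KO M2, 0% and 0% in WT M2, and 92.1% in KO M0 against 25% in WT M0. It was also 19.5% and 100% in KO M1 against 53.9% and 59.7% in WT M1, so cover at this run was not limited to KO cells.

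In M1, 640 far bins were called in both KO and neither WT library, and 627 the other way round. These are 2.72% and 2.67% of the far bins called in M1, beside backgrounds of 2.31% and 1.82%. Without 1 of the 4 M1 libraries the counts were 1274 to 2903 and 1343 to 2998. The longest KO-only run, of 5 kb, lay between Ndfip2 and Spry2, a gene of a growth factor signalling inhibitor (chr14:105630001-105635000). It was 100% and 90.9% covered in KO M1 against 0% and 5.32% in WT M1, with 0% to 32.3% in M2 and 0% in M0. The longest WT-only run, also of 5 kb, lay beside Foxl1 (chr8:121235001-121240000), with 1.88% and 2.00% in KO M1 against 100% and 99.3% in WT M1. It was also called in M2, at 100% and 29.7% in KO M2 against 47.6% and 100% in WT M2. The 3 longest WT-only runs of M1, like those of M2, included one in the Edn1 to Phactr1 domain of 81.6 kb, at another position (chr13:42539001-42543000). Over all 10 libraries, 1 far bin was called in every KO and no WT library, or 0.0035% of far bins, beside 0.0282% of all bins, and 0 were called in every WT and no KO library, beside 0.00214%. That bin lies between Cadm1 and Nxpe4 (chr9:48053001-48054000) and was 69.3% to 100% covered in the 5 KO libraries and 0% to 7.70% in the 5 WT libraries.

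Between states, 58 far bins were called in all 4 M2 and no M1 libraries, 0.208% of far bins beside a background of 0.151%. The reverse held for 113, or 0.405%, beside 0.294%. Leaving out 1 of the 8 libraries gave 70 to 285 and 121 to 369. The longest M1-only run was of 4 kb between Cdkn2b, a cell cycle inhibitor gene, and Dmrta1 (chr4:89551001-89555000). It was 92.0% to 100% covered in M1 and 0% in all 4 M2 and both M0 libraries. Runs of 3 kb lay between Kif2a and Zswim6, 92.6% to 100% covered in M1 and 0% to 10.1% in M2, and between Stmn4 and Adra1a, 100% covered in M1 and 0% to 4.23% in M2. The 3 longest M2-only runs were of 2 kb, beside Fstl4, beside Rbfox1 and beside Pmepa1, a negative regulator of TGF-beta signalling. In the 16.8 kb domain beside Pmepa1 (chr2:173405127-173421959) the cover was 85.9% and 99.2% in KO M2 against 15.7% and 95.2% in WT M2. It was 0% and 13.5% in KO M1 against 5.94% and 0% in WT M1, and 82.2% in KO M0 against 62.1% in WT M0, so that domain was covered in M0 too.

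Stimulated cells had 1053 far bins called in all 8 libraries and in neither M0 library, 3.69% of far bins beside a background of 4.11%. The reverse count was 112, or 0.392%, beside 0.712%. Both shares were under the background. The longest stimulated-only run, 9 kb at chr9:122559001-122568000, lies between Abhd5, a lipolysis cofactor gene, and Topaz1, upstream of the CG-rich 9530059O14Rik promoter shown above, and was 100% covered in all 8 stimulated libraries, 4.14% in KO M0 and 2.30% in WT M0. Runs of 8 kb lay between Axin2, a Wnt pathway inhibitor gene, and Rgs9, and between Trib2 and Lpin1. M0-only runs reached 2 kb, one of them inside the Runx1 to Setd4 domain. M0 had 1 library per genotype, and the difference in fragment length between M0 and the rest cannot be told apart from the state.

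**Figure D5:**
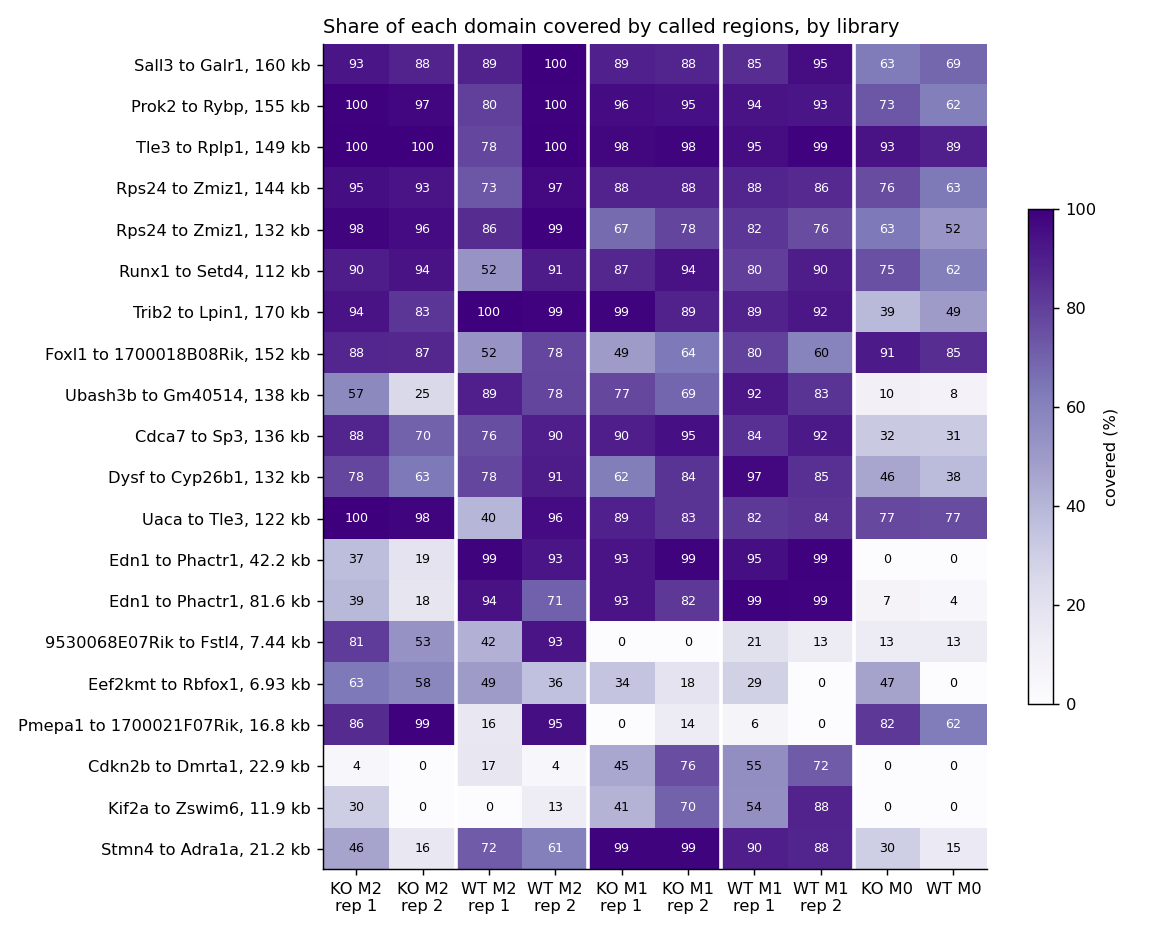
Percent of each named far domain covered by called regions (shade and number) in the 10 libraries; rows are labelled by the flanking coding genes and the width. The upper 6 rows, the widest domains covered in all 10 libraries, reach 52.3% or more in every library, while the Edn1 to Phactr1 rows lie at 0% to 6.77% in M0 and at 17.6% to 38.8% in KO M2.

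The authors' deposited tables of KO against WT list 401-bp regions with p under 0.01. By the same distance rule, far regions made up 43 of 1049 listed as higher in KO M2 (4.10%) and 29 of 185 listed as higher in WT M2 (15.7%). In M1 the authors' deposited tables had 11 of 93 (11.8%) higher in KO and 9 of 49 (18.4%) higher in WT. Of a library's called autosomal regions, 6.05% to 9.61% were far. Those regions are 1 kb or wider, and the far share of all the 401-bp regions tested is not known. The far shares of the authors' lists therefore have no like background here. The adjusted p-values of the authors' deposited M2 tables imply 25401 regions tested, of which 4.13% are listed as higher in KO and 0.728% as higher in WT. The number of all listed regions under a false discovery rate of 0.1 is not given here. The far count under it thus has no background. A far region passed that rate in 1 case, at chr12:35679067-35679467 between Ahr, the aryl hydrocarbon receptor gene, and Agr3. The authors' deposited table gives it a log2 fold of KO over WT of -3.00 and a false discovery rate of 0.0991. Per library it was 0% and 0% covered in KO M2 against 78.1% and 100% in WT M2, 0% and 0% in KO M1 against 100% and 100% in WT M1, and 0% in both M0 libraries.

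By p, the next far regions in the authors' deposited table of higher WT M2 signal lay between Plk2 and Actbl2, with a log2 fold of -4.32, and beside Foxp1, a forkhead gene, with -3.26, both at a false discovery rate of 0.105. The leading far regions of higher KO M2 signal in the authors' deposited table lay beside Cadm1 with a log2 fold of 1.65, beside Kif26a with 1.93 and between P2ry1 and Rap2b with 1.91, at false discovery rates of 0.131 to 0.145. The 29 far regions listed as higher in WT M2 were called in 0 of 29 cases in KO M0 and in 0 of 29 in WT M0, but in 12 and 9 cases in KO M1 and in 10 and 13 in WT M1. The 156 other autosomal regions of that table were also rarely called in M0, 3.21% in KO and 2.56% in WT. Their called share in M1 was 34.6% to 71.8%. Of the far regions listed as higher in KO M2, 43 in all, the called number was 32 in KO M0 and 27 in WT M0, and in M1 it was 13 and 17 in KO and 14 and 15 in WT. The called share of the 1006 other autosomal regions of that table was 82.7% in KO M0, 77.2% in WT M0 and 54.7% to 63.6% in M1. Far M1 regions in the authors' deposited tables were led by sites between Vrk2 and Ccdc85a (log2 fold 2.30), between Runx1 and Setd4 (1.20) and between Etnk1 and Sox5 (3.5), listed as higher in KO. The last of these was under a called region in WT M1 replicate 2 only, against the listed direction. Those listed as higher in WT lay between Cibar1 and Triqk (log2 fold -1.64), beside Kif26a (-1.73) and between Grik3 and Csf3r (-1.39). Every far M1 region in the authors' deposited tables had the same false discovery rate of 1.00 (rounded up).

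Far territory held 2031 annotated lncRNA genes and 113 microRNA genes. At least 50% of the body lay under far regions in all 10 libraries for 45 of the 2031 lncRNA genes and 4 of the 113 microRNA genes, and in any library for 235 and 9. These are 2.22% and 3.54% in all 10, and 11.6% and 7.96% in any. Of 1806 far pseudogenes the shares were 0.388% and 4.26%. Of the 656 Mb of far territory, 2800 kb was called in all 10 libraries and 4.35% in any. That count is of 1 kb bins, and the genes were scored by 50% of the body, so the bins are no like background. No test was made of these shares. The 4 microRNA genes were Mir100, Mir125b-1, Mir124a-2 and Gm51272, which overlaps Mir124a-2. MicroRNA 124 is known as a neuron-enriched microRNA, and the Mir124a-2 region spanned 4.04 and 12.3 kb in KO M2 against 12.5 and 4.13 kb in WT M2, 11.6 to 12.6 kb in M1, and 4.41 kb in KO M0 against 2.64 kb in WT M0. Mir802 was under regions of 8.49 to 98.4 kb in 8 libraries and under none in WT M2 replicate 1 and WT M1 replicate 1, the 2 libraries that also stood apart on the X chromosome. The longest lncRNA genes covered in all 10 were 4921525O09Rik (27.4 kb, between Gadd45g and Diras2), Gm41112, Gm33201, Gm32224, Gm31455 and Gm32068, of 17.8 to 22.7 kb. Of these 6, Gm41112, Gm32224 and Gm32068 lie in the Rps24 to Zmiz1 gap. The cover of 4921525O09Rik was 75.8% in WT M2 replicate 1 and 90.3% to 100% in the other 9 libraries.

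Far lncRNA promoters under H3K27me3 in all libraries held more CG dinucleotides than those under none. A promoter sequence was found for 1581 of the 2031 lncRNA genes. In the 300-base windows the count had a median of 5 in the 54 promoters covered in all 10 libraries, 4 in the 209 covered in 1 to 9, and 2 in the 1318 covered in none. At least 10 CG stood in 22.2%, 7.18% and 4.78% of these promoters. At least 10 also stood in 43.9% of all 27025 promoters in the table. CG reads the same on both strands, and its count rises with GC content, whose medians were 50.8%, 47.7% and 44.3%. The 3 promoters shown above are among the 12 of the 54 with at least 10, and the lowest of the 54 has 1 CG.

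Listed developmental regulators and neural genes were looked up beside the far domains covered in all 10 libraries, with all coding genes as background. Of 70 developmental regulators, 56 flank a gap over 200 kb, and 4 of these, Foxf1, Meis1, Sall3 and Tbx3, are beside a domain covered in all 10 libraries (7.14%). Of 72 neural adhesion and guidance genes matched on the autosomes, 64 flank such a gap and 0 are beside such a domain. Over all coding genes the number was 103 of 2343 flanking genes (4.4%). A far bin called in all 10 libraries lay beside 11 of the 56 developmental genes (19.6%), 1 of the 64 neural genes (1.56%) and 370 of the 2343 (15.8%). These are descriptions of lists, with no test.

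The most densely tagged far regions were at 2 positions whose tags stood apart from the rest. At chr17:39843129-39849423 in WT M0, over the ribosomal RNA copy Rn18s-rs5, the density was 3747 tags per kb, and in all 10 libraries it ran from 360 to 3747. On chromosome 2, at chr2:98662043-98667689 in KO M0, where the table has no gene, 9 libraries had regions of 818 to 2091 tags per kb; the median far region of the pooled lists had 14.5. The 3 regions of highest score in each state were at these positions too, apart from one on chromosome 9 in WT M2 replicate 1. These 2 positions held 5.45% and 7.77% of far tags in KO M2 against 2.08% and 5.13% in WT M2, 3.5% to 7.42% in M1, and 15.6% in KO M0 against 20.9% in WT M0. No input library was used in the calling, and the source of these densities was not tested. Without both positions the far tag density was 21.5 tags per kb in KO M0 and 22.7 in WT M0.

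Antigen receptor segments are not counted as coding genes in the table, so their loci lay partly in far territory. Far regions there numbered 21 and 20 in KO M2 against 15 and 28 in WT M2, 20 and 28 in KO M1 against 15 and 25 in WT M1, and 15 in KO M0 against 14 in WT M0. Most were in Igh, with 5 to 15 per library, and in Tra, with 1 to 12, and Trb had 2 to 5. Of 466 far segments 0 were at least 50% covered in all 10 libraries and 17 in any. The 17 are 3.65%, beside 4.35% of all far bins called in any library, which is a share of 1 kb bins and not of gene bodies.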

How the data were processed

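Per the file headers, the authors ran HOMER in its region mode on each library by itself, with no input. The called windows were 1000 bp wide and joined over up to 2500 bp, with a false discovery rate limit of 0.001, as those headers record. The deposited signal column is a tag count scaled to 10 megatags; the deposited score and clonal ratio columns come from the same caller. The submitters' processing notes name HOMER 4.8, Bowtie2 2.4.2, deepTools 3.5.1, DiffBind 2.0.2, SAMtools 1.10 and mm10, with no roles. The authors' tables give log2 concentrations and folds with a p-value; their model is not stated in the labels. No reads were counted here, so depth acts only through the region calls.

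Distances were taken to 20560 autosomal coding genes of RefSeq GRCm38.p6, after 105 entries below 3 Mb, on alternate scaffolds, were dropped. The gene table has no exons, so exon, intron and UTR positions were not analysed. Bins of 1 kb counted as called at 50% cover. Tests were exact two-sided permutations (scipy 1.17.1, numpy 2.4.6, pandas 2.3.3, Python 3.11.15), adjusted by Benjamini-Hochberg over 12 tests of groups; the steps were tested on simulated data. Replicate numbers did not pair the libraries. Alternatives varied the distance limit, gene biotypes, score, bin cover, overlap and libraries. Regions were named by rule: the 6 widest domains covered in all libraries, the 3 longest separated runs, the densest and highest-scoring regions, the 6 longest lncRNA genes, and the leading far regions of the authors' tables. Mir100hg, the richest gaps, the widest domain of all and the microRNAs were chosen after their values were seen. The members and lists were chosen with earlier results of these data known.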

Additional observations from a re-analysis of the deposited data

Results flagged for a closer look

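KO M1 replicate 1 had a median Normalized Tag Count of 27 over its far regions, far above the other 3 M1 libraries, which had 22.4 to 23.1. WT M0 had the highest far tag density of the 5 WT libraries, 28.7 tags per kb, and the lowest far share of in-region tags, 2.54%. It is the only unstimulated library among the 5, so state and library cannot be told apart. Such gaps were looked for in 4 groupings of 6 measures, and chance flags about 1 in 20 groups. On the X chromosome, outside the rule, 1562 regions of WT M2 replicate 1 and 1176 of WT M1 replicate 1 lay over 100 kb from coding genes, against 11 to 25 in the other 8 libraries. The difference between the genotype effects of M2 and M1 was tested for the 6 measures by exact permutation with 36 arrangements, and the smallest unadjusted p was 0.111, for the median size.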

How the results depend on the processing

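Apart from leaving out a library, 114 recomputed values stayed the same, 8 reversed, 1 passed the threshold and 4 moved by over 1.5 times or over the spread. For tested differences, the same means that direction and side of the threshold were kept. For bin counts it means a change of at most 1.5 times, and for the sharing of regions a change under the spread. The far minus other density difference reversed to 0.766 tags per kb without gene-body regions, with the 2 densest positions kept. The other 7 reversals were among differences that did not pass the test. The KO minus WT number of far regions was -17.6 beyond 200 kb, -25.2 with distances to genes of every biotype and -72.5 in stimulated libraries alone. The KO minus WT covered length was 0.0567 Mb in the upper 50% by score, and the Jaccard difference by genotype was -0.0047 there. With genes of every biotype the median tag difference was -0.43 for KO minus WT and -0.0125 for M2 minus M1, and the M2 minus M1 number was -79 (exact permutation p = 0.0286, unadjusted). Bins called in every KO and no WT library numbered 4 at 25% bin cover, 3 at 75% and 13 in the upper 50% by score. The median share of far regions found in all 9 other libraries was 6.12%, or 19.1% when any overlap counted. The causes were not tested.

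Leaving out each library in turn gave -72.5 to 108.9 regions and -0.638 to 0.36 Mb for KO minus WT, -0.0673 to 0.0275 kb for the M2 minus M1 size, -0.261 to 1.55 tags for the KO minus WT median count, 1.00 to 2.82 tags per kb for the M2 minus M1 density and -0.0177 to 0.0474 for the Jaccard difference by genotype. Separated bins numbered 921 to 3041 in KO M2, 1569 to 3935 in WT M2, 1274 to 2903 in KO M1, 1343 to 2998 in WT M1, 2 to 16 in all KO, 0 to 45 in all WT, 70 to 285 in M2 and 121 to 369 in M1; fewer libraries loosen this criterion by construction. With the replicate block, the KO minus WT number was 29.0 (exact permutation p = 0.812), and the block changed no call; same-numbered libraries did not deviate together, with correlations of -0.0513 to 0.0417. Called regions, not reads, limit what low signal can show: 29.7% to 40.8% of far regions are 1 window wide.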
